A study of Homo sapiens with 4 samples.

Results

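Interferon and double-stranded RNA sensing genes were examined in RWP-1 cells, an established human pancreatic cancer cell line. They were all genes with a single symbol in the platform annotation that belong to the IFI, IFIT, IFITM, ISG, MX, OAS, GBP, IRF, STAT, TLR or HERC5/HERC6 families by name, plus IFIH1, RSAD2, XAF1 and BST2. The rule found 53 genes among 14884 named genes: 11 sensors, 15 transcription factors and IRF2 binding proteins, 25 effectors, and 2 genes matched by name only, the pseudogene IFITM4P and the antisense gene TLR8-AS1. The rule used names and no measured difference. A gene with several probe sets was represented by the brightest over the 4 arrays. MX1, OAS1, OAS2, OAS3, IFI6 and IFI27 were not among the named genes and are not analysed here.

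The series compared control cells (Ctrl, n = 2 arrays) with cells given rGAL1 (n = 2 arrays). The short form is read as recombinant galectin-1, a lectin that cells secrete and that recognises galactose residues on glycans. No dose, duration or vehicle is labelled, and both groups are the same line with no other treatment named. The treatment field of rGAL1 replicate 2 reads control, against its title and source name. The array was kept as rGAL1, and some of the results are also given under the other reading. Whether the 2 arrays of a group stand for separate cultures is not labelled, so every p-value covers the spread of these arrays alone, and that spread may be technical.

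Cells meet viral or bacterial material through sensors. IFIH1 (MDA5) binds long double-stranded RNA in the cytosol, TLR3 binds double-stranded RNA in endosomes, and the other toll-like receptors bind lipopeptides, lipopolysaccharide, flagellin, single-stranded RNA or unmethylated DNA. Their adaptors activate IRF3, IRF7 and NF-kappaB, which switch on type I interferon genes; secreted interferon then acts through JAK kinases and a factor complex that includes IRF9 on genes that carry an interferon-stimulated response element (ISRE). The products of those genes, such as the IFIT proteins, viperin (RSAD2) and the ubiquitin-like ISG15, act against viral RNA, translation, entry and budding.

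Each value is the log2 RMA expression of a probe set, and differences are rGAL1 minus Ctrl in log2 units. The median value of an array was 4.69 to 4.72. Over all probe sets, the SD of the difference between 2 arrays was 0.27 to 0.30 log2 units for pairs within and across groups. Of 7 named epithelial and ductal markers, all lay above the array median level, with KRT18 highest at 12.4. Of 6 named leukocyte markers, 5 also lay above it (SPI1, a factor of blood cells, at 5.59), so a value above the array median does not show that a gene is expressed. The summed level of the 6 leukocyte markers was 33.6 and 34.0 on the Ctrl arrays and 33.9 and 34.1 on the rGAL1 arrays, and both named fibroblast markers, DCN and LUM, lay below the array median, at most at 3.32. The leukocyte marker CD68, a lysosomal protein also made by other cells, was at 7.71 and 7.88 in Ctrl and at 8.13 and 8.23 in rGAL1, a difference of 0.39, and the other 5 differed by -0.15 to 0.10. The part of other cells in the results was not tested.

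No member passed the test at an adjusted p under 0.05 in limma with Benjamini-Hochberg adjustment, and neither did any of the 53617 probe sets (0%). The smallest adjusted p was 0.919, with 2807 probe sets at an unadjusted p under 0.05. Among the members, 3 reached an unadjusted p under 0.05, all with higher means in rGAL1: the double-stranded RNA sensors TLR3 and IFIH1, and the effector IFIT2. That is 5.66% of 53 members, against 2.98% of all named genes (444 of 14884). The count was 1 without Ctrl replicate 2, 1 without rGAL1 replicate 1, 0 without rGAL1 replicate 2, and 0 with rGAL1 replicate 2 counted as a control. An exact permutation test of 2 arrays against 2 cannot give a two-sided p under 0.333.

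The differences were small, and their intervals cover the spread of these arrays alone, which may be technical. The 95% interval of limma lay within 1 log2 unit on either side of 0, a 2-fold change, for 53 of 53 members. Among named genes it did so for 14770 of 14884. It lay within 0.5 units for 40 members and for 11095 named genes. The median SE was 0.115 for the members and 0.114 for all named genes. The mean was higher in rGAL1 for 36 of 53 members (67.9%), against 51.7% of named genes. It was higher for 30 members with rGAL1 replicate 2 counted as a control, against 53.2% of named genes. Both rGAL1 arrays lay above both Ctrl arrays for 15 members (28.3%, against 20.2% of named genes) and below both for 6 members (11.3%, against 17%). With rGAL1 replicate 2 counted as a control, 11 members lay apart and lower, and 23.4% of named genes. The groups overlapped for the other 32. The median difference of the members was 0.045, against 0.0056 for named genes. The difference exceeded the gap between the arrays of either group for 13 of 53 members, and for 27 it was smaller than 1 pooled SD. The shares of named genes for these last counts were not computed, so the counts do not set the members apart from other genes.

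**Figure D1:**
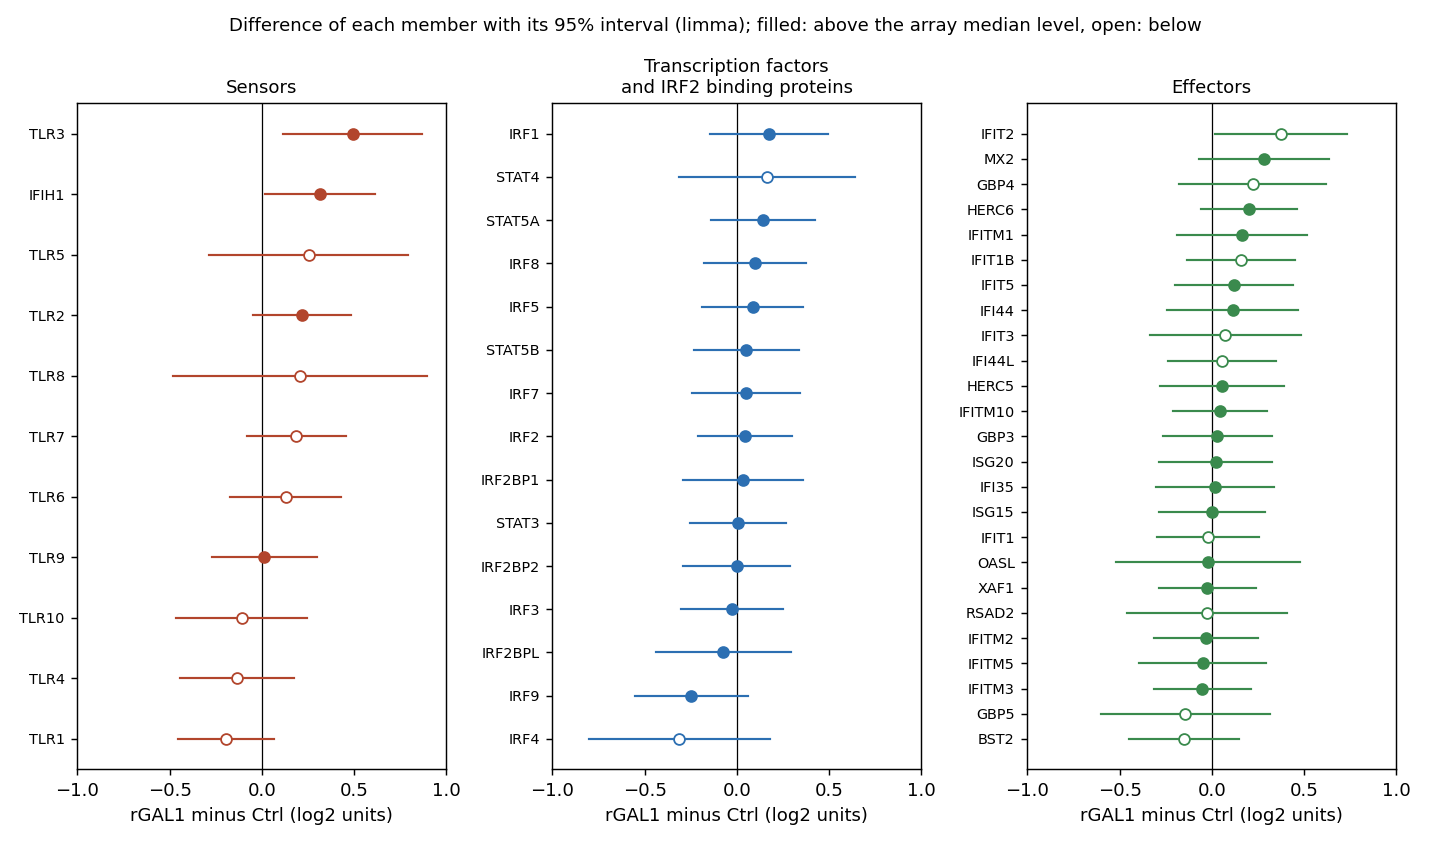
Difference between rGAL1 and Ctrl (log2 units, horizontal axis) for the 11 sensors, 15 factors and 25 effectors, with the 95% interval from limma as a line; filled points lie above the array median level of 4.70 and open points below. The intervals of TLR3, IFIH1 and IFIT2 lie above 0 before adjustment, no interval reaches 1 log2 unit, and the interval of ISG15 is centred on 0.

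The promoter letters that the interferon-activated complex with IRF9 reads were searched in the members. RefSeq promoters of build GRCh38.p14, from 250 bases before to 50 bases after a gene's start, were present for 39 of the 53 members; IFIT2 and MX2 were among the 14 without one. The ISRE was searched as GAAANNGAAA on both strands (TTTCNNTTTC on the other), and the gamma-activated site, which STAT dimers bind, as TTCNNNGAA, which reads alike on both strands. ISRE letters were present in 14 of 19 effectors (73.7%), 2 of 8 sensors (25%) and 0 of 12 factors, against 4.38% of 27305 genes. Windows of this length held them in 3.57% of 35116 cases. The gamma-activated letters were present in 8 of 39 members (20.5%), against 9.38% of genes, and overlapped ISRE letters in 2 members and 20 genes. A match is a description of these letters, not a binding site.

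The 2 sensors with ISRE letters, of 8 with a promoter, were IFIH1 and TLR3, the double-stranded RNA receptors among the 11 sensors. Their stretches are printed because both genes carry the largest differences of the 11. Capitals mark the ISRE letters. The TLR3 stretch is chr4:186069137-186069176 on the plus strand, with the match starting 4 bases before the gene's start. The IFIH1 stretch is chr2:162318681-162318858 on the minus strand and holds 3 matches, 2 of them overlapping.
TLR3: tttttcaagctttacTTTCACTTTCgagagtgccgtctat
IFIH1: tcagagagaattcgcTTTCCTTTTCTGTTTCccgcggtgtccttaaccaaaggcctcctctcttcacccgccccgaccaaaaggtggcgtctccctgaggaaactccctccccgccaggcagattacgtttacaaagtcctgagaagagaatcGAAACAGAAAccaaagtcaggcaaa

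Stretches of ISG15, IFIT1, RSAD2 and BST2 are printed beside them because they hold the same letters in genes whose values differed little or lay lower. ISG15 is at chr1:1013369-1013414 on the plus strand and IFIT1 at chr10:89392492-89392544 on the plus strand. RSAD2 is at chr2:6877617-6877656 on the plus strand and BST2 at chr19:17405730-17405775 on the minus strand. ISG15, IFIT1 and BST2 held 2 matches each and RSAD2 held 1.
ISG15: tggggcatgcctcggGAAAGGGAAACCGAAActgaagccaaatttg
IFIT1: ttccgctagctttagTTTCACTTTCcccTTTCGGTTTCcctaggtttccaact
RSAD2: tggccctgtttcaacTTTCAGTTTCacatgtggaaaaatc
BST2: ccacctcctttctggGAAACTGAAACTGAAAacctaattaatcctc

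The 16 members with ISRE letters had a median difference of 0.054, and the 23 members whose promoter lacked them had a median of 0.053. Means were higher in rGAL1 for 12 of the 16 and for 17 of the 23. Non-overlapping higher values were counted in 2 of the 16 and in 8 of the 23, and non-overlapping lower values in 1 and in 3, where the shares over all named genes are 20.2% and 17%. TLR3 and IFIH1 were the 2 members with ISRE letters whose values lay apart and higher, and BST2 the 1 that lay apart and lower.

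Among the 11 sensors, the largest differences were those of TLR3 and IFIH1, the receptors for double-stranded RNA in this group. TLR3, the endosomal receptor, was at 4.85 and 4.52 on the Ctrl arrays and at 5.17 and 5.18 on the rGAL1 arrays. Both rGAL1 values lay above both Ctrl values, and the rGAL1 pair was closer together than the Ctrl pair. The difference was 0.49 (SE 0.15, 95% interval 0.11 to 0.87), a 1.41-fold difference, with limma's unadjusted p = 0.0211 and adjusted p = 0.919. It was 0.33 without Ctrl replicate 2, the lowest array, and 0.32 with rGAL1 replicate 2 counted as a control.

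IFIH1, the cytosolic receptor for long double-stranded RNA, was at 6.38 and 6.49 in Ctrl and at 6.82 and 6.67 in rGAL1. The groups did not overlap, and the gap between them was larger than that within either. The difference was 0.32 (SE 0.11, 95% interval 0.02 to 0.61), or 1.24-fold, with limma's unadjusted p = 0.042 and adjusted p = 0.919. Leaving out each array in turn gave 0.24 to 0.39.

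TLR2, the lipopeptide receptor that pairs with TLR1 or TLR6, was at 5.60 and 5.52 in Ctrl and at 5.80 and 5.75 in rGAL1. Its groups did not overlap, with a difference of 0.22 (SE 0.10, 95% interval -0.05 to 0.48) and limma's unadjusted p = 0.0897. TLR9, the receptor for unmethylated DNA, was at 5.47 and 5.51 in Ctrl and at 5.43 and 5.58 in rGAL1. The rGAL1 arrays of TLR9 were the lowest and the highest of the 4, and the difference was 0.01 (SE 0.11, 95% interval -0.27 to 0.30).

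The other 7 toll-like receptors lay below the array median level, and their differences ran in both directions, from -0.19 to 0.25. TLR7, a receptor for single-stranded RNA, was at 3.38 and 3.48 in Ctrl and at 3.60 and 3.63 in rGAL1, a non-overlapping difference of 0.19 (SE 0.10). TLR6 also lay apart and higher, by 0.13 (SE 0.12). TLR1 was at 3.84 and 3.83 in Ctrl and at 3.68 and 3.61 in rGAL1, so it lay apart and lower, by -0.19 (SE 0.10). TLR4, the lipopolysaccharide receptor, lay lower by -0.14 (SE 0.12), with its closest values at 4.32 in Ctrl and 4.31 in rGAL1.

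The groups of TLR5, TLR8 and TLR10 overlapped. TLR8, the other receptor for single-stranded RNA, was at 3.81 and 3.55 in Ctrl and at 3.53 and 4.25 in rGAL1, so its rGAL1 arrays were the lowest and the highest of the 4. Its difference of 0.21 (SE 0.26) was -0.15 without rGAL1 replicate 2 and -0.34 with that array counted as a control. TLR5, the flagellin receptor, was at 4.33 and 3.77 in Ctrl and at 4.27 and 4.35 in rGAL1. Its difference of 0.25 (SE 0.21) was -0.03 without Ctrl replicate 2. Named genes below the array median level had a median absolute difference of 0.11, and those above it of 0.075. TLR10, a receptor with no settled ligand, differed by -0.11 (SE 0.14), or 0.038 without Ctrl replicate 1.

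Of the 11 sensors as a group, 8 had higher means in rGAL1 (72.7%, against 51.7% of named genes). Apart and higher lay 5 (45.5%, against 20.2%), and apart and lower lay 2 (18.2%, against 17%). The median difference of the sensors was 0.19, and it was 0.080 without Ctrl replicate 2 and 0.11 with rGAL1 replicate 2 counted as a control. All 4 sensors above the array median level had higher means, with a median difference of 0.27. Of these 4, 3 lay apart and higher, against 22.2% of named genes above that level, and none lay lower, against 17%. The level was taken over all 4 arrays. TLR3 passed it through its rGAL1 arrays, as its Ctrl mean of 4.68 lay below 4.70. The counts above that level are thus not independent of the differences. Of the 7 below it, 2 lay higher, against 15.4% of named genes below that level, and 2 lower, against 17%.

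**Figure D2:**
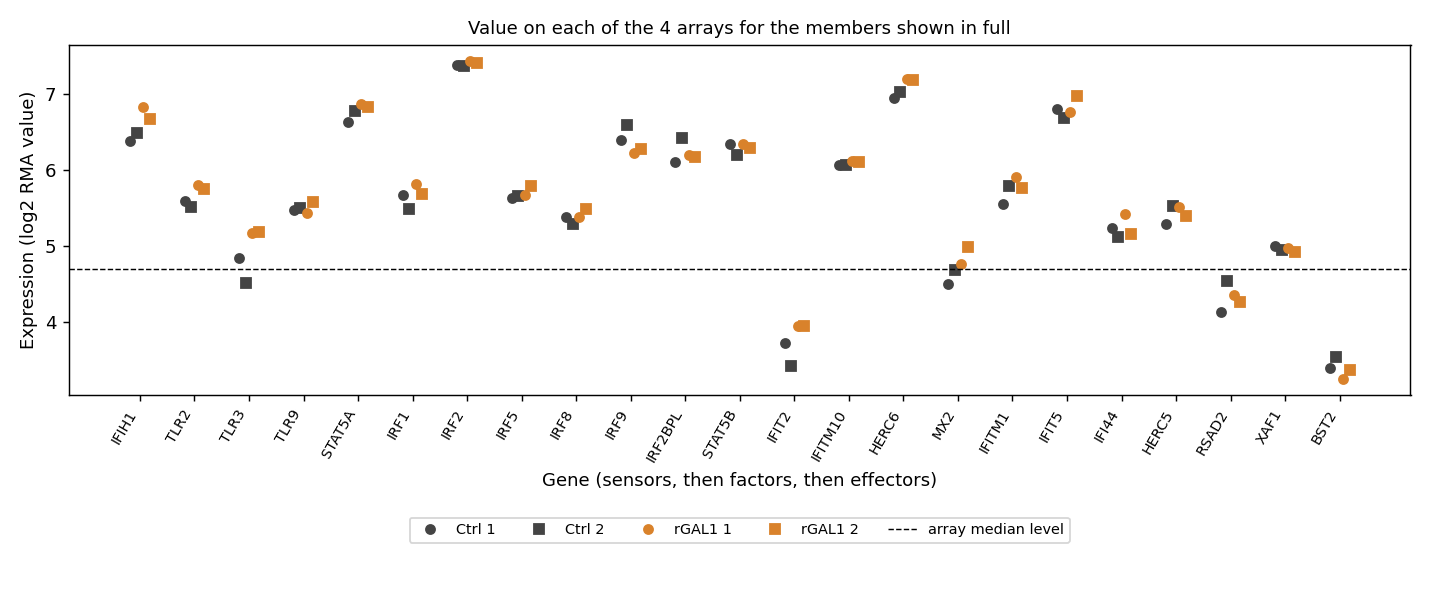
Log2 RMA value on each of the 4 arrays (vertical axis) for 23 members chosen by role, level and difference, with Ctrl arrays in grey, rGAL1 arrays in orange and the array median level of 4.70 as a dashed line. Both orange symbols lie above both grey ones for TLR3, IFIH1, TLR2, STAT5A, IRF1, IRF2, IRF5, IRF8, IFIT2, IFITM10, HERC6 and MX2. Both lie below for IRF9 and BST2.

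The transcription factors differed by less. None of the 15 reached an unadjusted p under 0.05, and the median difference was 0.045. The mean was higher for 11 of 15 (73.3%, against 51.7% of named genes). Apart and higher lay 5 (33.3%, against 20.2%), and apart and lower lay 2 (13.3%, against 17%). The median was 0.018 without Ctrl replicate 1, 0.030 without rGAL1 replicate 2 and -0.013 with rGAL1 replicate 2 counted as a control. Above the array median level were 13 of the 15, with 5 apart and higher (38.5%, against 22.2% of named genes above that level) and 1 apart and lower (7.69%, against 17%).

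IRF9, the DNA-binding subunit of the complex that type I interferon activates, was at 6.39 and 6.60 in Ctrl and at 6.23 and 6.27 in rGAL1. Both rGAL1 values lay below both Ctrl values. The difference was -0.25 (SE 0.12, 95% interval -0.55 to 0.06), with limma's unadjusted p = 0.0944, and it was -0.14 without Ctrl replicate 2. IRF4, a factor of lymphoid cells, lay below the array median level at 4.69 and 4.20 in Ctrl and at 4.18 and 4.09 in rGAL1. Its groups did not overlap by a narrow margin, and its difference of -0.31 (SE 0.19) was -0.07 without Ctrl replicate 1.

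IRF1, an early interferon-gamma target that activates other interferon-stimulated genes, was at 5.67 and 5.48 in Ctrl and at 5.82 and 5.68 in rGAL1. The groups were apart by a margin smaller than the gap within either, and the difference was 0.17 (SE 0.12, 95% interval -0.15 to 0.49), or 0.08 without Ctrl replicate 2. IRF2, which competes with IRF1 for the same DNA sites, was at 7.38 and 7.37 in Ctrl and at 7.44 and 7.40 in rGAL1. It lay apart and higher by 0.05 (SE 0.10, 95% interval -0.21 to 0.30), a difference within its SE.

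IRF5, a factor that acts below toll-like receptors, was at 5.63 and 5.66 in Ctrl and at 5.67 and 5.79 in rGAL1, a difference of 0.09 (SE 0.10) that was -0.022 with rGAL1 replicate 2 counted as a control. IRF8, a factor of myeloid cells, was at 5.376 and 5.291 in Ctrl and at 5.379 and 5.485 in rGAL1, a difference of 0.10 (SE 0.11). In both genes the groups were apart, by a margin smaller than the gap within either. IRF3 and IRF7, the factors that drive interferon genes, overlapped between groups, with differences of -0.02 (SE 0.11) and 0.05 (SE 0.11).

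Among STAT factors, which carry cytokine signals to the nucleus, 4 of 4 means were higher in rGAL1, and 1 member lay apart. STAT5A was at 6.63 and 6.78 in Ctrl and at 6.86 and 6.83 in rGAL1, so both rGAL1 values were higher. The difference was 0.14 (SE 0.11, 95% interval -0.14 to 0.43), and 0.07 without Ctrl replicate 1. STAT5B, its close paralogue, was at 6.34 and 6.20 in Ctrl and at 6.35 and 6.29 in rGAL1, overlapping, with a difference of 0.05 (SE 0.11). STAT3, which carries interleukin-6 signals, differed by 0.01 (SE 0.10), and STAT4, below the array median level, by 0.16 (SE 0.18), which was -0.055 without Ctrl replicate 1 and 0.38 without Ctrl replicate 2.

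The IRF2 binding proteins, a family named after corepressors of IRF2, overlapped between groups in 3 of 3 cases. IRF2BPL was at 6.10 and 6.41 in Ctrl and at 6.19 and 6.18 in rGAL1. Its Ctrl arrays were the lowest and the highest of the 4, and the difference was -0.07 (SE 0.14), or 0.084 without Ctrl replicate 2. IRF2BP1 differed by 0.03 (SE 0.12). IRF2BP2 differed by 0.0009 (SE 0.11) on its brightest probe set, while its other probe set lay apart and higher by 0.09 (SE 0.10).

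The 25 effectors were assigned by gene name, not by a measured response to interferon. Of these, 5 lay apart and higher in rGAL1 (20%, against 20.2% of named genes). Another 1 lay apart and lower (4%, against 17%), 19 overlapped, and the mean was higher in rGAL1 for 16 (64%, against 51.7%). The median difference was 0.031, and the median absolute difference was 0.054, against 0.084 for all named genes and 0.19 for the sensors. These sets differ in level. Above the array median level, the median absolute difference was 0.047 for 16 effectors, 0.27 for 4 sensors and 0.075 for named genes. Below that level it was 0.14 for 9 effectors, 0.19 for 7 sensors and 0.11 for named genes. The effectors' median difference was 0.011 without rGAL1 replicate 1 and 0.048 to 0.056 without any other array. The effector at an unadjusted p under 0.05 was IFIT2.

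ISG15, the ubiquitin-like product of an interferon-stimulated gene, was at 7.86 and 8.02 in Ctrl and at 7.94 and 7.94 in rGAL1. Both rGAL1 values lay between the Ctrl values. The difference was 0.0007 (SE 0.11, 95% interval -0.29 to 0.29), and the interval reached 1.22-fold on the spread of these arrays. HERC5, the ligase that attaches ISG15 to proteins, was at 5.29 and 5.52 in Ctrl and at 5.52 and 5.40 in rGAL1, overlapping, with a difference of 0.05 (SE 0.13).

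HERC6, the neighbouring gene and paralogue of HERC5, was at 6.95 and 7.02 in Ctrl and at 7.19 and 7.18 in rGAL1. Both rGAL1 values lay higher, with a gap between groups wider than that within either. The difference was 0.20 (SE 0.10, 95% interval -0.06 to 0.46), with limma's unadjusted p = 0.103 and 0.16 to 0.24 without each array in turn. ISG20, an RNA exonuclease, differed by 0.02 (SE 0.12).

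The IFIT proteins bind viral RNA and hold back its translation, and their genes lie side by side in RefSeq's gene order. IFIT2 lay below the array median level, at 3.73 and 3.43 in Ctrl and at 3.96 and 3.95 in rGAL1. Both rGAL1 values were higher and lay close together. The difference was 0.38 (SE 0.14, 95% interval 0.02 to 0.73), or 1.30-fold, with limma's unadjusted p = 0.0433 and adjusted p = 0.919. It was 0.23 without Ctrl replicate 2, and 0.26 with rGAL1 replicate 2 counted as a control.

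IFIT5, the 1 member of that cluster above the array median level, was at 6.79 and 6.69 in Ctrl and at 6.76 and 6.97 in rGAL1. Its higher mean came from rGAL1 replicate 2, and the difference was 0.12 (SE 0.12), 0.02 without that array and -0.056 with it counted as a control. IFIT1 was at 3.48 and 3.39 in Ctrl and at 3.46 and 3.37 in rGAL1, overlapping, with a difference of -0.02 (SE 0.11, 95% interval -0.30 to 0.26). IFIT3 differed by 0.07 (SE 0.16) and IFIT1B, a divergent relative of IFIT1, lay apart and higher by 0.16 (SE 0.11).

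MX2, a dynamin-like GTPase that acts against retroviral capsids, was at 4.50 and 4.68 in Ctrl and at 4.76 and 4.99 in rGAL1. Both rGAL1 values were higher. The difference was 0.28 (SE 0.14, 95% interval -0.07 to 0.64), with limma's unadjusted p = 0.0939. It was 0.17 without rGAL1 replicate 2 and 0.04 with that array counted as a control. MX2 was also the member closest to the array median level of 4.70 from above, with a mean of 4.73, and TLR4 was the closest from below, with 4.36.

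The IFITM proteins, which hinder the entry of enveloped viruses at membranes, gave small differences of mixed sign. IFITM1 was at 5.55 and 5.80 in Ctrl and at 5.91 and 5.76 in rGAL1, with groups that overlapped and a difference of 0.16 (SE 0.13), or 0.04 without Ctrl replicate 1. IFITM2 and IFITM3 differed by -0.03 (SE 0.11) and -0.05 (SE 0.10), and the interval of IFITM3 reached 1.24-fold. IFITM10 was at 6.068 and 6.062 in Ctrl and at 6.121 and 6.098 in rGAL1. All 4 values were close, its groups were apart by a narrow margin, and the difference of 0.04 (SE 0.10) was within its SE. IFITM5, a gene of bone, differed by -0.05 (SE 0.13).

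The interferon-inducible IFI genes overlapped between groups in 3 of 3 cases. IFI44 was at 5.24 and 5.12 in Ctrl and at 5.43 and 5.16 in rGAL1, with rGAL1 replicate 2 between the Ctrl values and a difference of 0.11 (SE 0.14). IFI44L, its neighbour and paralogue, and IFI35 differed by 0.05 (SE 0.11) and 0.02 (SE 0.12). The guanylate binding proteins, GTPases that attack vacuoles of intracellular microbes, also overlapped. GBP3, GBP4 and GBP5 differed by 0.03 (SE 0.11), 0.22 (SE 0.15) and -0.14 (SE 0.18). With rGAL1 replicate 2 counted as a control, these differences were 0.12, 0.06 and -0.30. OASL, an OAS-like protein without the synthase activity, was at 5.59 and 5.34 in Ctrl and at 5.22 and 5.67 in rGAL1. Its rGAL1 arrays were the lowest and the highest of the 4. Its difference of -0.02 (SE 0.19) was 0.20 without rGAL1 replicate 1 and -0.31 with rGAL1 replicate 2 counted as a control.

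RSAD2 (viperin), which makes a chain-terminating nucleotide, was at 4.13 and 4.54 in Ctrl and at 4.36 and 4.26 in rGAL1. Both rGAL1 values lay between the Ctrl values, with a difference of -0.02 (SE 0.17, 95% interval -0.46 to 0.41), or 0.18 without Ctrl replicate 2. XAF1, a pro-apoptotic interferon target, was at 5.01 and 4.95 in Ctrl and at 4.98 and 4.93 in rGAL1, overlapping, with a difference of -0.02 (SE 0.10, 95% interval -0.29 to 0.24). BST2 (tetherin), which holds budding virions at the cell surface, was at 3.40 and 3.54 in Ctrl and at 3.26 and 3.38 in rGAL1. Its rGAL1 values lay below its Ctrl values by a narrow margin, with a difference of -0.15 (SE 0.12, 95% interval -0.45 to 0.15).

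Split at the array median level of 4.70, 34 of 53 members lay above it (64.2%), against 71.8% of named genes. By role, 4 of 11 sensors, 13 of 15 factors and 16 of 25 effectors lay above. Levels of different probe sets are not set against each other, so the split only says where a member lay among all values of the arrays. Members above had a median difference of 0.039, with 11 apart and higher (32.4%, against 22.2% of named genes above it) and 2 apart and lower (5.88%, against 17%), IRF9 and IFITM4P. Members below had a median of 0.074, with 4 apart and higher and 4 apart and lower (21.1% each, against 15.4% and 17% of named genes below it). TLR3 and MX2, both counted as above and as apart and higher, had Ctrl means of 4.68 and 4.59, below 4.70. The split used all 4 arrays, so these counts are not independent of the differences. Against the higher median over probe sets with 1 gene symbol, 5.77, 20 members lay above.

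**Figure D3:**
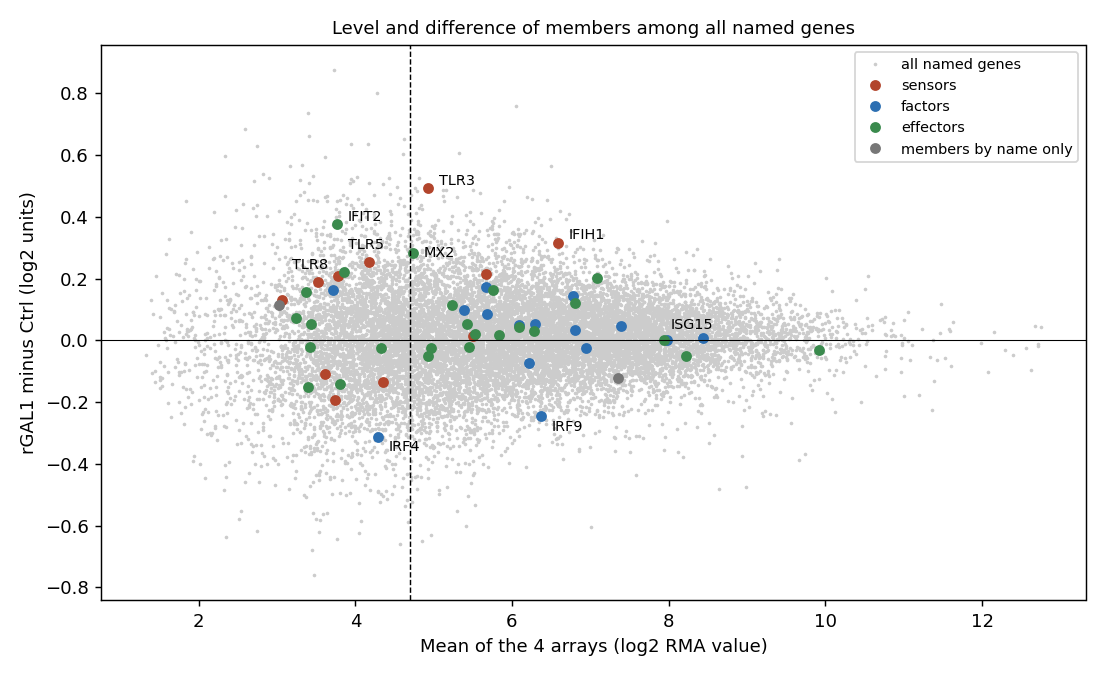
Mean log2 RMA value of the 4 arrays (horizontal axis) against the difference between rGAL1 and Ctrl (log2 units, vertical axis) for 14884 named genes in grey and the members in colour by role, with the array median level of 4.70 dashed. The members lie within the spread of the named genes; TLR3 and IFIH1 are at the upper side of it at their levels, and ISG15 lies at 0.

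The sizes rest on 2 arrays a group. With each array left out in turn, 26 of 53 members kept 1 sign in every case. Among the 20 members whose difference exceeded its SE, TLR5 was the 1 whose sign changed in any alternative. The same-numbered arrays, which were not taken as pairs, gave differences of the same sign for 33 of 53 members. Of these, 23 were higher and 10 lower in rGAL1. None of these counts was made over all named genes, so they do not set the members apart from other genes.

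**Figure D4:**
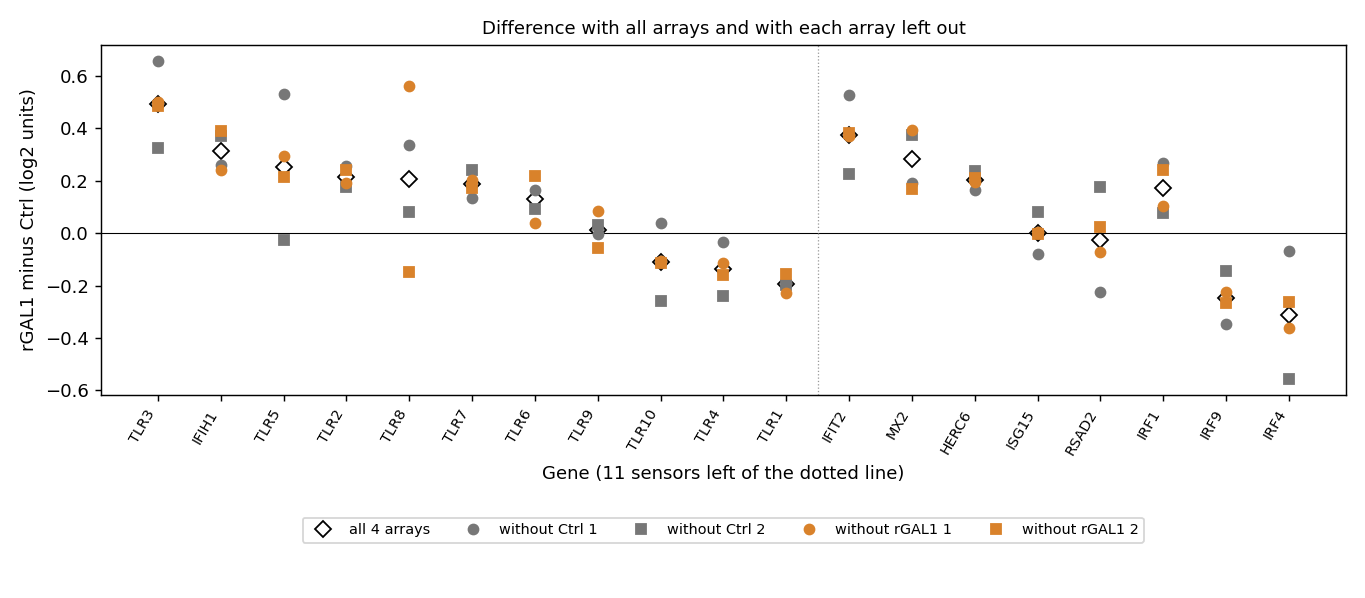
Difference between rGAL1 and Ctrl (log2 units, vertical axis) for the 11 sensors, left of the dotted line, and 8 other members, with all 4 arrays (open diamonds) and with each array left out (filled symbols). TLR3 runs from 0.33 to 0.66, IFIH1 from 0.24 to 0.39, and TLR8 and RSAD2 lie on both sides of 0.

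Other genes of the same pathway were taken from a list picked by function: 64 of 119 listed genes were named and are no members. None passed the test, and 3 reached an unadjusted p under 0.05 in limma (4.69%, against 2.98% of named genes), all with higher means in rGAL1. The mean was higher for 48 of 64, against 51.7% of named genes; 26 lay apart and higher (40.6%, against 20.2%) and 5 apart and lower (7.81%, against 17%). Of the 64, 57 lay above the array median level, where 22.2% of named genes lay apart and higher. The median difference was 0.06. The count of 3 was 0 without Ctrl replicate 1 or rGAL1 replicate 1, 1 without Ctrl replicate 2, and 0 with rGAL1 replicate 2 counted as a control.

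Among receptors and kinases, JAK2, which carries interferon-gamma and other cytokine signals, was at 5.49 and 5.65 in Ctrl and at 6.02 and 5.89 in rGAL1. Its groups were apart by more than the gap within either, with a difference of 0.38 (SE 0.12) and limma's unadjusted p = 0.024. JAK1 lay apart and higher by 0.10 (SE 0.10), the receptor subunit IFNGR2 by 0.07 (SE 0.10), and IFNGR1 and TYK2 overlapped with differences of 0.04 (SE 0.12) and -0.06 (SE 0.12). The nuclear body protein SP110 was at 5.30 and 5.37 in Ctrl and at 5.75 and 5.58 in rGAL1, a difference of 0.33 (SE 0.11, limma's unadjusted p = 0.0364). The chemokine CXCL10 was at 2.99 and 2.97 in Ctrl and at 3.36 and 3.29 in rGAL1, below the array median level, with a difference of 0.35 (SE 0.10, limma's unadjusted p = 0.0193). All 3 genes gave adjusted p = 0.919.

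By role, 6 of the 16 other sensors and adaptors lay apart and higher and 2 apart and lower, with a median difference of 0.04. Of these, RIGI, EIF2AK2 and DHX58 also bind double-stranded RNA, and differed by 0.13 (SE 0.10), 0.12 (SE 0.10) and 0.09 (SE 0.16). RIGI and EIF2AK2 lay apart and higher, and the groups of DHX58 overlapped. DHX9 and DHX36, nucleic acid sensors of the same list, differed by 0.05 (SE 0.10) and 0.03 (SE 0.10). ZBP1, another nucleic acid sensor, lay apart and lower by -0.23 (SE 0.10). Over the 16 genes, differences ran from -0.23 to 0.30. Of the 7 signal transducers, 3 lay apart and higher and none lower. The 5 negative regulators divided into 2 apart and higher and 3 apart and lower. Of 31 other interferon-stimulated genes, 27 had higher means in rGAL1, 12 lay apart and higher and none lower, with a median difference of 0.06. Over all named genes, 51.7% had higher means, 20.2% lay apart and higher and 17% apart and lower.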

How the data were processed

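RNA from 4 samples, 100 ng of total RNA each, was biotin-labelled with a whole-transcript kit, per the labels' protocols, and measured on 1 array per sample. The deposited values are log2 expression, 1 per probe set, made with RMA, which the submitters' processing notes name beside limma without versions; for both, settings and genome build were not given in the sources used here. The RMA method subtracts background, puts the arrays on one scale and shrinks differences between dim probe sets. Of 53617 probe sets, 16098 carried 1 gene symbol and 37519 none. Entrez IDs tied all 53 members to current gene records. The number of arrays limits the precision.

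All probe sets were fitted with limma 3.58.1 under R 4.3.3 (eBayes after lmFit, no block, two-sided, Benjamini-Hochberg over all probe sets), and tables were made with Python 3.11.15 and pandas 2.3.3. The fit was tested on simulated data. The title's numbers were not taken as pairs, since deviations of same-numbered arrays correlated at -0.05. The members, roles, lists and tests were chosen with earlier results of these data known. Values on every array were given for members above the array median level whose groups did not overlap, members at an unadjusted p under 0.05, IFIH1, TLR3, RSAD2, XAF1 and BST2, and then the largest differences above that level up to 8 per role; IRF4, IFIT1, TLR1, TLR5, TLR7 and TLR8 are the dim ones given besides. ISG15 and OASL were added to these, and further dim members named by their difference, after their values were seen.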

Additional observations from a re-analysis of the deposited data

How the results depend on the processing

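No probe set was called under any alternative (0 to 0 without each array; smallest adjusted p from 0.39 to 1). The 3 members at an unadjusted p under 0.05 became 1 with the replicate block, 0 with rGAL1 replicate 2 counted as a control and 0 to 3 without each array; the 3 pathway genes became 5 over probe sets with 1 gene symbol, 0 with that array counted as a control and 0 to 2 without each array. The replicate block moved no other count by over 1.5 times. Members with groups that do not overlap, 21, numbered 13 among the 34 above the array median level and 35 to 40 without each array, where 3 values overlap less by construction (34.3% to 36.9% of named genes then lay apart and higher, and 31.7% to 34.6% lower). Those apart and higher, 15, were 23 to 26 without each array. Those apart and lower, 6, were 2 above the array median level, 11 with rGAL1 replicate 2 counted as a control and 10 to 15 without each array. The sensors' median difference of 0.19 was 0.27 above the array median level, 0.11 with that array counted as a control and 0.080 to 0.19 without each array. The factors' median of 0.045 was 0.059 with each array centred, 0.038 after quantile normalization, -0.013 with that array counted as a control and 0.018 to 0.043 without each array. The effectors' median stayed between 0.011 and 0.056. Members above the array median level, 34, were 20 against the median of named probe sets. TLR5 turned to -0.025 without Ctrl replicate 2 (range -0.025 to 0.53). The cause of these moves was not tested, except where fewer arrays or genes set the count. Higher means in rGAL1, 36, were 25 of the 34 members above the array median level and 31 to 36 without each array. They were 30 of 53 with rGAL1 replicate 2 counted as a control, against 53.2% of named genes. Of 670 recomputed differences, 61 changed sign. OAS1, OAS2 and OAS3 were not members, so their alternative role was not run.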

Other observations

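IFITM4P, a pseudogene of the IFITM family, had 6 probe sets, and all 6 lay apart and lower in rGAL1, by -0.11 to -0.28. Its brightest was at 7.43 and 7.39 in Ctrl and at 7.29 and 7.28 in rGAL1, a difference of -0.12 (SE 0.10). Among the 6 were 2 pairs of probe sets with identical values on every array, so they are not 6 separate measurements, and signal from sequence shared with other IFITM genes cannot be told apart on them. TLR8-AS1, antisense to TLR8, overlapped between groups with a difference of 0.11 (SE 0.12).

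Of 51 protein-coding members, 23 lay in 8 clusters of neighbouring genes, with at most 3 steps in RefSeq's gene order between members. All members of 4 clusters had differences on 1 side of 0: IFI44 and IFI44L, HERC5 and HERC6, STAT3 with STAT5A and STAT5B, and TLR7 with TLR8. In the cluster of 5 IFIT genes, 4 differences were above 0 and IFIT1 was at -0.02. TLR1 and TLR10 were at -0.19 and -0.11 beside TLR6 at 0.13, and probes of these close paralogues may share signal.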
